A study of Homo sapiens with 12 samples.

Results

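The genes described are 10 human glycosyltransferases, enzymes of the Golgi that add single sugars to glycolipids or to proteins: UGCG, B4GALT5, A4GALT, ST3GAL5, ST8SIA1, B4GALNT1, FUT1, GALNT1, GALNT2 and GALNT3. They are 10 of the 44659 genes of a raw count table, and each was found as a row of that table by its symbol. A4GALT, FUT1 and GALNT3 were selected on their change in these libraries, so their values are given without a test, and the test was kept for the other 7, which were added as enzymes of the same pathways. RNA-seq was performed on A375 cells, a human BRAF-mutated melanoma line, in 2 experiments with 3 libraries per group. In the MAPKi experiment, BRAF was inhibited with 500 nM vemurafenib and MEK with 500 nM cobimetinib, given together for 24 h, and control cells received the solvent DMSO. In the glutamine (Gln) experiment, cells were kept for 24 h in medium without Gln, and control cells (CTRL) in the same medium with 2 mM Gln. All libraries come from this line, so the line is the only model, and nothing in the labels ties the 3 libraries of a group to separate isolates of it.

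Glycosphingolipids are built on ceramide. UGCG adds glucose to ceramide, and B4GALT5 adds galactose to give lactosylceramide, from which several branches start: A4GALT opens the globo branch (Gb3), ST3GAL5 makes the ganglioside GM3, ST8SIA1 turns GM3 into GD3, and B4GALNT1 makes GM2 and GD2. GD3 and GD2 are known as abundant gangliosides of melanoma cells. FUT1 adds the terminal fucose of the H antigen on glycolipids and glycoproteins, and the GALNT enzymes start mucin-type O-glycans by adding N-acetylgalactosamine to serine or threonine.

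Total counts were 31056296 to 40071368 reads per library, so for all but the lowest values the spread between libraries limits the precision more than counting. The libraries of the Gln experiment were more unlike each other than those of the MAPKi experiment: between replicates, chi-square per degree of freedom was 39.6 to 191 in the former and 4.74 to 15.6 in the latter. Replicate 1 of the Gln experiment is labelled as experimental batch 1 and replicates 2 and 3 as batch 2, and the 2 experiments are labelled as different sequencing batches. The treatments were read off known targets. All 11 tested targets of ERK signalling fell after MAPKi (median log2 fold change -4.07), where 18.4% of all genes tested did. After Gln depletion, 8 of 9 tested amino acid response genes rose (median 2.71), where 3.51% of all genes tested did. Genes of both lists were also called under the other treatment. Without Gln, 3 of 12 tested ERK targets were called higher (median 0.86), where 3.51% of all genes tested were. With MAPKi, 2 of 9 tested amino acid response genes were called higher and 4 lower (median -0.65). Of all genes tested, 17.1% were higher and 18.4% lower, so the 2 higher genes are near the share over all genes. All 9 melanocyte markers had reads. Their summed level was 355 to 380 RPKM (reads per kilobase of exon, scaled to the TMM-scaled library size) with DMSO and 1332 to 1646 with MAPKi. In this experiment 6 of 9 were called higher, where 17.1% of all genes tested were, and S100B was called lower. The summed level was 296 to 337 in CTRL medium and 199.6 to 223 without Gln. There MITF alone was called, as lower, of 8 tested, where 1.92% of all genes tested were lower. Among markers of other cell types, KRT5, KRT1 and DSG3 of keratinocytes and CD3E of leukocytes were at 0 reads in all 12 libraries, the 5 leukocyte markers summed to 0.434 to 1.07 RPKM and the 4 endothelial markers to 0.476 to 1.29 RPKM. The 5 fibroblast markers summed to 5.78 to 9.64 RPKM in CTRL medium and 2.53 to 2.97 RPKM without Gln, against 8.15 to 10.2 RPKM in the MAPKi experiment. Their members went different ways: FAP was called higher after MAPKi (3.06-fold), and after Gln depletion PDGFRA was called higher (2.51-fold) and LUM lower (4.61-fold). The 5 keratinocyte markers, mostly through KRT10, summed to 17.1 to 17.8 RPKM with DMSO and 26.1 to 26.5 RPKM with MAPKi, and to 16.6 to 22.5 RPKM in CTRL medium and 23.6 to 48.4 RPKM without Gln. The part of these shifts in the values below was not tested.

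After MAPKi, UGCG and B4GALT5 rose, ST3GAL5 and ST8SIA1, of the GM3 and GD3 steps, fell, and A4GALT was nearly without reads. The threshold used for calls within an experiment was a 1.5-fold change. Past it, 2 of the 7 genes not chosen on their values rose in this experiment and 2 fell (edgeR, adjusted p of at most 0.05). Over the 12593 genes tested, 17.1% rose and 18.4% fell in this way. Against no change, 7 of 7 differed, where 77.9% of all genes tested did. After Gln depletion, 0 of these 7 rose (also 0 at an unadjusted p under 0.05, and 0 by DESeq2) and 1 fell, where 3.51% and 1.92% of 12512 genes did, and 3 of 7 differed from no change, where 17.7% did. Same-numbered libraries of this experiment deviated together, and with the replicate number as a block in the fit (replicate block) 0 of the 7 rose and 3 fell, where 8.99% and 7.4% of the 12512 genes did. With 7 genes, no share of them is read as a result about the group. The median log2 fold change of the 7 was 0.21 after MAPKi and -0.31 after Gln depletion, against 0.0073 and 0.016 over all genes tested. In bulk RNA, fewer cells with a transcript and less of it per cell cannot be told apart.

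**Figure D1:**
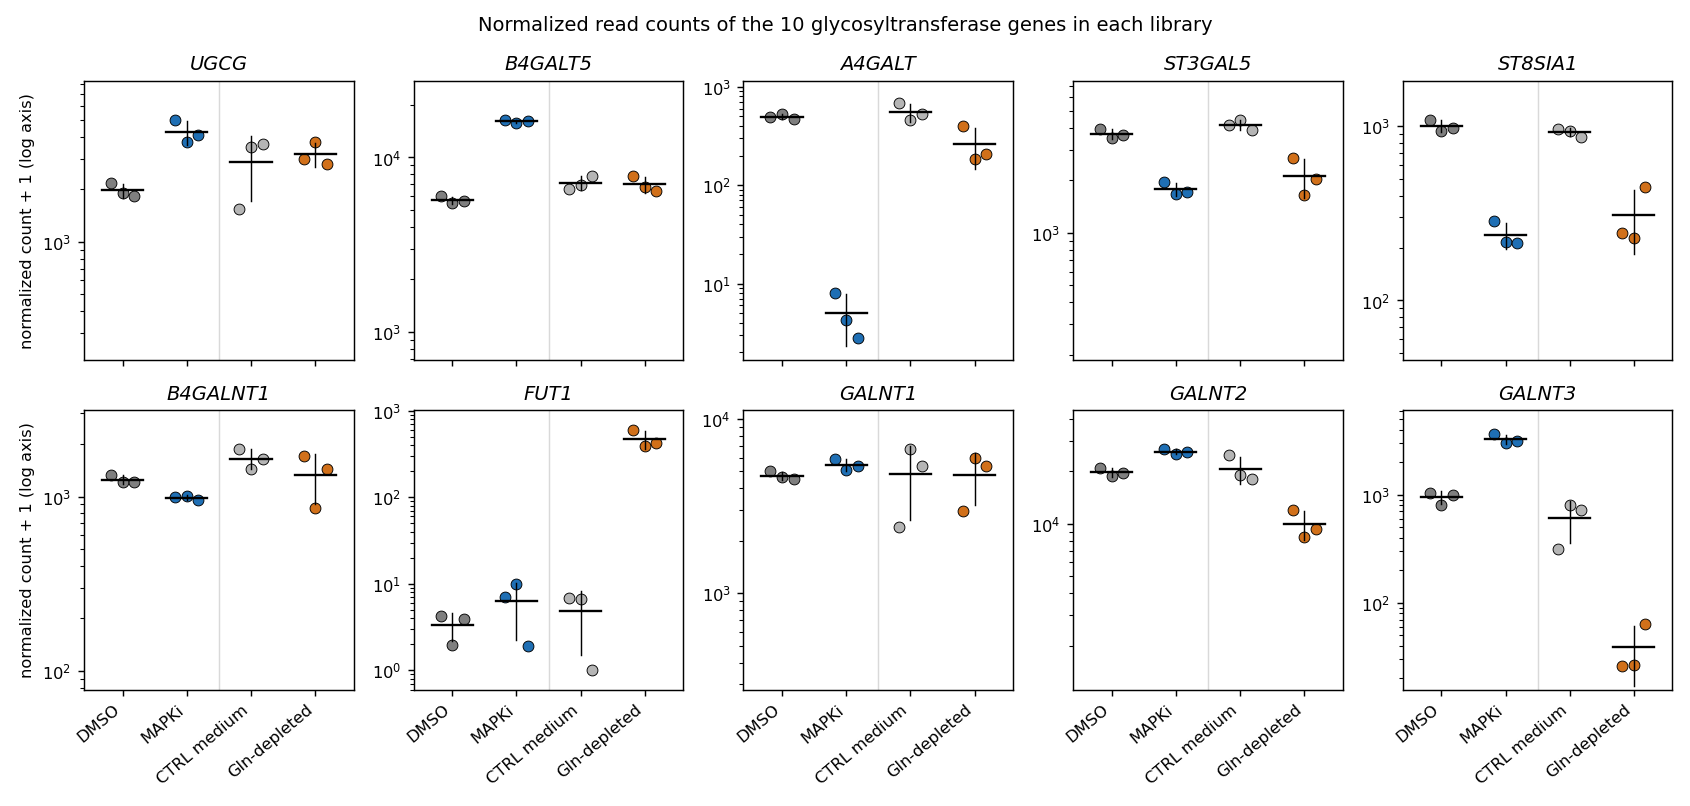
Normalized counts plus 1 (log axis) of the 10 genes in the 12 libraries, 3 per group. Each dot is a library, horizontal lines are group means, and vertical lines are 1 SD where the mean minus 1 SD lies above the axis. A4GALT in the MAPKi libraries (mean normalized count 4.05) and FUT1 in all but the Gln-depleted libraries lie near 0, and GALNT3 moves up with MAPKi and down without Gln.

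UGCG (ENSG00000148154, GRCh38 chr9:111896814-111935369, plus strand), the enzyme that commits ceramide to glycosphingolipids, had normalized counts of 2167, 1906 and 1830 with DMSO (counts were divided by the TMM-scaled library size). With MAPKi they were 5011, 3709 and 4067. Every MAPKi library lay above every DMSO library, and the rise was 1.12 on the log2 scale (SE 0.11, a 2.17-fold change, edgeR adjusted p = 3.65e-04 against the threshold). In CTRL medium the values were 1529, 3497 and 3612, and without Gln they were 2976, 3747 and 2805. These groups overlapped, since the CTRL library of experimental batch 1 was far below the other CTRL libraries, and the log2 fold change was 0.14 with an interval of -0.60 to 0.88 (edgeR adjusted p = 0.791 against no change). The difference of the pair was 0.96 in batch 1, and the log2 fold change within batch 2 was -0.12.

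B4GALT5 (ENSG00000158470, chr20:49632945-49713878, minus strand), which makes lactosylceramide together with B4GALT6, gave the steadiest rise after MAPKi. Its normalized counts were 5973, 5465 and 5636 with DMSO and 16480.3, 15785 and 16138 with MAPKi. This was a 2.83-fold change, with a log2 fold change of 1.50 (SE 0.049, edgeR adjusted p = 5.86e-08 against the threshold), and the SD of the MAPKi group was 348 around a mean of 16134. B4GALT6, the other lactosylceramide synthase, went the other way in the same libraries, from a mean of 6477 ± 542 to 1853 ± 133 (SD, n = 3), a fall of 1.81 on the log2 scale (edgeR adjusted p = 1.65e-07). In the Gln experiment, B4GALT5 had 6564, 6992 and 7877 with Gln and 7865, 6768 and 6436 without it. The groups overlapped, and the log2 fold change was -0.025 with an interval of -0.44 to 0.39 (0.26 in batch 1 and -0.17 in batch 2).

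A4GALT (ENSG00000128274, chr22:42692121-42721298, minus strand), the Gb3 synthase, had 457, 529 and 492 reads in the DMSO libraries and 7, 3 and 2 reads in the MAPKi libraries. The 12 reads of the MAPKi group against 1478 give a level 126-fold lower after scaling, with a 95% counting interval of 71.8 to 244 that covers counting error only. On the log2 scale the fitted value was -6.92 (SE 0.24), the farthest from 0 among the 9 of the 10 genes that could be fitted in this experiment, and -7.58 without MAPKi replicate 1, which held 7 of the 12 reads. Without Gln it was lower by less: 377, 187 and 175 reads against 698, 477 and 588 in CTRL medium, a log2 fold change of -1.08 (SE 0.34). The normalized counts of the Gln-depleted libraries (183 to 396) all lay below those of the CTRL libraries (456 to 685), and the log2 difference was -0.79 in experimental batch 1 and -1.32 in batch 2. The RefSeq promoter table (GRCh38.p14) gives A4GALT 2 start sites, and their windows of 250 bases before to 50 bases after the start are shown because this gene had the strongest loss of reads. Capitals mark GGAA or its complement TTCC, the core of ETS factor motifs, which the upstream window holds 5 times and the downstream window not at all.
A4GALT downstream start, chr22:42720821-42721120, minus strand: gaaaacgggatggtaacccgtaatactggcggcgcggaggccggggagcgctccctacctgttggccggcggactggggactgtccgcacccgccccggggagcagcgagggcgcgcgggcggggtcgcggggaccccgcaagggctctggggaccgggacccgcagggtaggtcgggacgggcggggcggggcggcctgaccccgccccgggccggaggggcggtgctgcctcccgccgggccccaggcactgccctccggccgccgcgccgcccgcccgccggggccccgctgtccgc
A4GALT upstream start, chr22:42721252-42721551, minus strand: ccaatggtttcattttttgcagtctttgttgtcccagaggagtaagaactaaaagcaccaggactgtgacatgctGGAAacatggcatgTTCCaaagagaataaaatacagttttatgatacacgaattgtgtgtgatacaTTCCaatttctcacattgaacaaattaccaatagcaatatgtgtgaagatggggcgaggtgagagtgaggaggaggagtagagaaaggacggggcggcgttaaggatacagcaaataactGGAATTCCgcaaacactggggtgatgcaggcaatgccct
The base composition of these windows also differs, with 81.0% G and C in the downstream window and 43.3% in the upstream window, against a median of 58.7% over all windows of the table. The next gene, CYB5R3, lies on the same strand with its annotated start 428 bases away, and 74 bases (2.2%) of the A4GALT exons overlap it. CYB5R3 had a log2 fold change of 0.21 after MAPKi and -0.093 after Gln depletion, neither called.

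The 3 ganglioside enzymes downstream of lactosylceramide were lower in every MAPKi library than in any DMSO library, but by different amounts. Such separation is not particular to them. All 7 genes not chosen on their values separated in this experiment, 4 upwards and 3 downwards. The share of all genes whose groups separate was not counted in either experiment, so separation is not read as a result. By the edgeR test, which is another measure, 77.9% of all genes tested differed from no change. ST3GAL5 (ENSG00000115525, chr2:85837120-85905199, minus strand), the GM3 synthase, had normalized counts of 3968, 3489 and 3668 with DMSO and 1956, 1675 and 1724 with MAPKi. It fell by 1.05 on the log2 scale (SE 0.069, edgeR adjusted p = 3.84e-05 against the threshold). ST8SIA1 (ENSG00000111728, chr12:22063773-22437041, minus strand), the GD3 synthase, had 1089, 935 and 980 with DMSO and 285, 217 and 211 with MAPKi. It fell by 2.08 on the log2 scale (SE 0.12, a level 4.21-fold lower, edgeR adjusted p = 1.04e-06). B4GALNT1 (ENSG00000135454, chr12:57623409-57633239, minus strand), the GM2 and GD2 synthase, had 1335, 1204 and 1211 with DMSO and 997, 1009 and 952 with MAPKi. Its log2 fold change of -0.34 (SE 0.057) differed from no change (edgeR adjusted p = 3.77e-04) but was not past the threshold.

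After Gln depletion the same order of effects was measured with wider errors. ST8SIA1 had 965, 934 and 870 normalized counts in CTRL medium and 242, 229 and 450 without Gln. It fell by 1.59 on the log2 scale (SE 0.29), and its edgeR adjusted p of 0.0388 against the threshold rose above 0.05 when any CTRL library, or replicate 1 or 2 of the Gln-depleted libraries, was left out (0.0656 to 0.146). Within experimental batch 1 the log2 difference was -1.99, and within batch 2 it was -1.41 (edgeR adjusted p = 0.0665). ST3GAL5 had 4171, 4464 and 3920 in CTRL medium and 2701, 1649 and 2028 without Gln. All Gln-depleted libraries were lower, and its log2 fold change was -0.98 (SE 0.22, edgeR adjusted p = 0.0220 against no change and 0.150 against the threshold). With the replicate block its edgeR adjusted p against the threshold was 0.0349, and the log2 differences within batches 1 and 2 were -0.63 and -1.19. B4GALNT1 had 1869, 1436 and 1634 in CTRL medium and 1697, 855 and 1442 without Gln, groups that overlapped, with a log2 fold change of -0.31 and an interval of -0.93 to 0.31 (-0.14 in batch 1 and -0.42 in batch 2). Reads from the opposite strand may add to B4GALNT1: SLC26A10P overlaps 27.1% and a further gene 11% of its exon bases, and the strand setting of the counting is not given in the sources used here.

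The ratio of reads between 2 genes of the same library does not depend on scaling. From DMSO to MAPKi libraries, ST3GAL5 reads went from 0.64 to 0.66 per B4GALT5 read to 0.11 to 0.12, and ST8SIA1 reads from 0.27 per ST3GAL5 read in each library to 0.12 to 0.15. B4GALNT1 reads per ST8SIA1 read went from 1.23 to 1.29 with DMSO to 3.50 to 4.66 with MAPKi. Without Gln this ratio was 7.02, 3.74 and 3.21, against 1.94, 1.54 and 1.88 in CTRL medium, so the balance between the B4GALNT1 and ST8SIA1 transcripts shifted the same way in all 6 treated libraries. The ST8SIA1 window below is shown because this gene was called lower in both comparisons without having been chosen on its values, and capitals mark GGAA or TTCC, of which it holds 4.
ST8SIA1 start, chr12:22334658-22334957, minus strand: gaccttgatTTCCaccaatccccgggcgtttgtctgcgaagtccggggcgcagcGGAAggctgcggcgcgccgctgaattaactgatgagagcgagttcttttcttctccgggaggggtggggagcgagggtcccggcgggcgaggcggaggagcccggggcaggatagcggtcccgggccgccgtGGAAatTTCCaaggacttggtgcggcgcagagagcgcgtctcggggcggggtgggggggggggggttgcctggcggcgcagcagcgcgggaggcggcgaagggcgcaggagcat

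**Figure D2:**
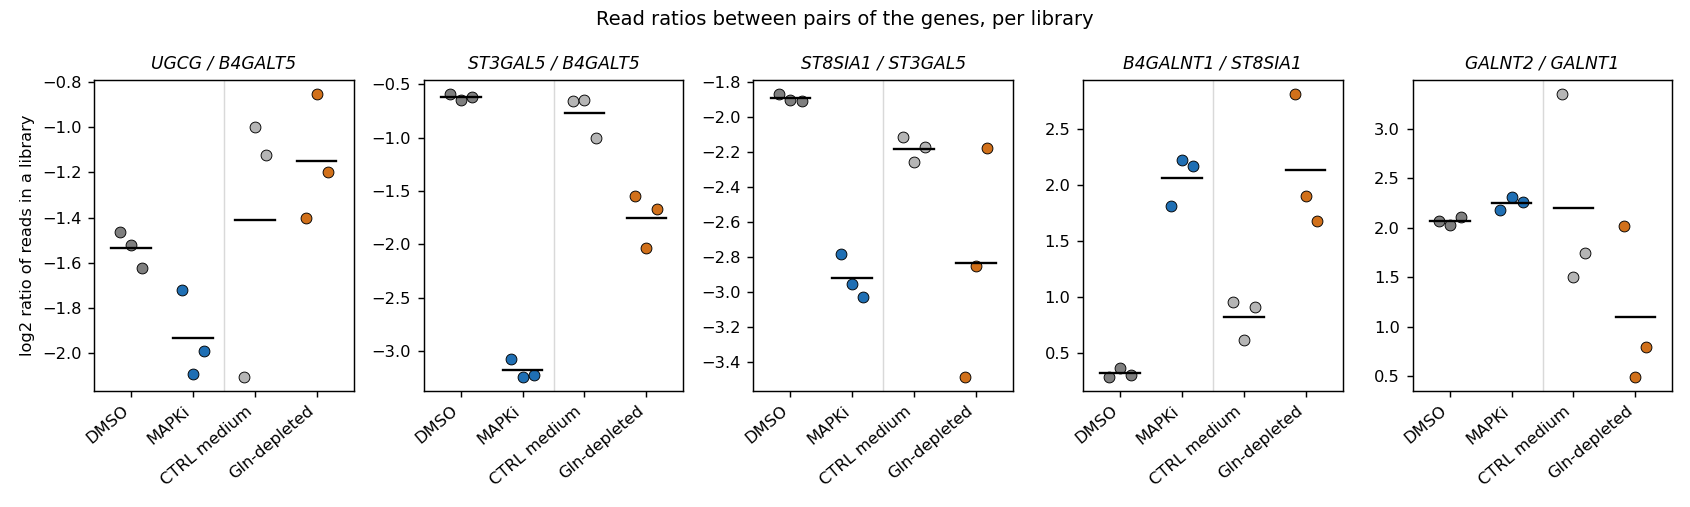
Log2 ratios of reads between pairs of the genes within each library, 3 libraries per group, with group means as lines. The ST3GAL5 to B4GALT5 ratio lies near -0.62 with DMSO and -3.18 with MAPKi, and in the Gln experiment the GALNT2 to GALNT1 ratio of replicate 1 lies above those of replicates 2 and 3 in both media.

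FUT1 (ENSG00000174951, chr19:48748011-48755390, minus strand), the H-antigen fucosyltransferase, was nearly without reads unless Gln was withdrawn. It had 573, 399 and 354 reads in the Gln-depleted libraries and 6, 6 and 0 in CTRL medium. The ratio of the summed reads, 1326 against 12, was 111 after scaling. Its 95% counting interval of 63.2 to 215 covers counting error only, and as FUT1 was chosen for its change it is no test. The fitted log2 fold change was 6.91 (SE 0.67), with 6.45 in experimental batch 1 and 7.12 in batch 2. In the MAPKi experiment it had 3, 1 and 3 reads with DMSO and 6, 8 and 1 with MAPKi, a ratio of 2.10 with an interval of 0.806 to 6.09. This is within counting error, and at a mean normalized count under 10 the gene was not tested there. The FUT1 and FGF21 genes lie head to head on opposite strands, with 133 bases between them in the annotation. FGF21, a secreted stress hormone named here after its values were seen, had 20, 13 and 11 reads in the Gln-depleted libraries and 0 reads in the other 9 libraries. The window of the FUT1 start is shown because it also holds the start of FGF21, 166 bases away in the RefSeq table. Capitals mark GGAA or TTCC and the single match to TGATGNAA, a pattern of the kind that ATF4 complexes bind.
FUT1 start, chr19:48755309-48755608, minus strand: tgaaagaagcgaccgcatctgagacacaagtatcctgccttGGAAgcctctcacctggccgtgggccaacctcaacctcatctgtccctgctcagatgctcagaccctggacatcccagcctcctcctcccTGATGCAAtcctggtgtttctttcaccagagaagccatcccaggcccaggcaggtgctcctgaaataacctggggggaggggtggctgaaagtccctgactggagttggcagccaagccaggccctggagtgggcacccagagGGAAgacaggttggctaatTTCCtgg
On the FUT1 strand the TGATGCAA match begins 119 bases before the FUT1 start. That base is the end of the match nearest to the FGF21 start and lies 47 bases before it. A match to TGATGNAA is present in 3.63% of the 34796 distinct windows of this length in the table. It is a match of letters in a reference sequence, and nothing was measured on binding.

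The 3 GALNT genes differed in direction and in size. GALNT2 (ENSG00000143641, chr1:230057990-230282122, plus strand) had the highest RPKM of the 10 genes in both control groups. It had normalized counts of 21020, 18799 and 19526 with DMSO and 26815, 25273 and 25806 with MAPKi, a log2 fold change of 0.39 (SE 0.053) that differed from no change (edgeR adjusted p = 9.15e-05) but was not past the threshold. Without Gln it had 12073, 8443 and 9307, against 24660, 19000 and 18034 in CTRL medium. Each Gln-depleted library was lower than any CTRL library, with a log2 fold change of -1.05 (SE 0.22, edgeR adjusted p = 0.0161 against no change and 0.105 against the threshold). With the replicate block the adjusted p against the threshold was 0.00514, and within experimental batches 1 and 2 the log2 differences were -1.03 and -1.06. Reads of a long non-coding RNA on the opposite strand, which overlaps 13.3% of its exon bases, cannot be told apart from those of GALNT2 without strand.

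GALNT1 (ENSG00000141429, chr18:35581117-35711834, plus strand) had the log2 fold change nearest to 0 in both experiments among the genes fitted. It had 4999, 4613 and 4536 with DMSO and 5895, 5101 and 5385 with MAPKi, a log2 fold change of 0.21 (SE 0.063, edgeR adjusted p = 0.0120 against no change) that was not past the threshold. In the Gln experiment its values differed more between the experimental batches than between the media: 2410.2 with and 2978 without Gln in batch 1, against 6707 and 5376 with and 5975 and 5366 without Gln in batch 2. The log2 fold change was -0.018, with an interval of -0.92 to 0.89 (0.31 in batch 1 and -0.091 in batch 2).

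GALNT3 (ENSG00000115339, chr2:165747588-165794659, minus strand), known for glycosylating the phosphate hormone FGF23, had a value above its control in the MAPKi experiment and below it in the Gln experiment. It had 1037, 795 and 992 normalized counts with DMSO and 3605, 2992 and 3148 with MAPKi, a 3.45-fold level with a log2 fold change of 1.79 (SE 0.10). In CTRL medium it had 323, 843 and 802 reads, and without Gln 24, 26 and 53 reads. The log2 fold change of -4.02 (SE 0.51) is a level 16.2-fold lower, and the lowest CTRL library, that of batch 1, still lay above each Gln-depleted library. The log2 difference was -3.60 within batch 1 and -4.12 within batch 2. Its promoter window is given because it is the gene of the 10 with large differences of opposite sign, and capitals mark GGAA or TTCC, of which it holds 3.
GALNT3 start, chr2:165794198-165794497, minus strand: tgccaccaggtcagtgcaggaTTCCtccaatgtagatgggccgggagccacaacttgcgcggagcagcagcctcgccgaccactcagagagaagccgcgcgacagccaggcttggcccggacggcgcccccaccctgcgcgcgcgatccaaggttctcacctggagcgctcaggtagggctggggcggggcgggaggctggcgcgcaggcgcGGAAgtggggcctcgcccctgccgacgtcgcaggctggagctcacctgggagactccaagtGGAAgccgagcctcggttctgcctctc

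**Figure D3:**
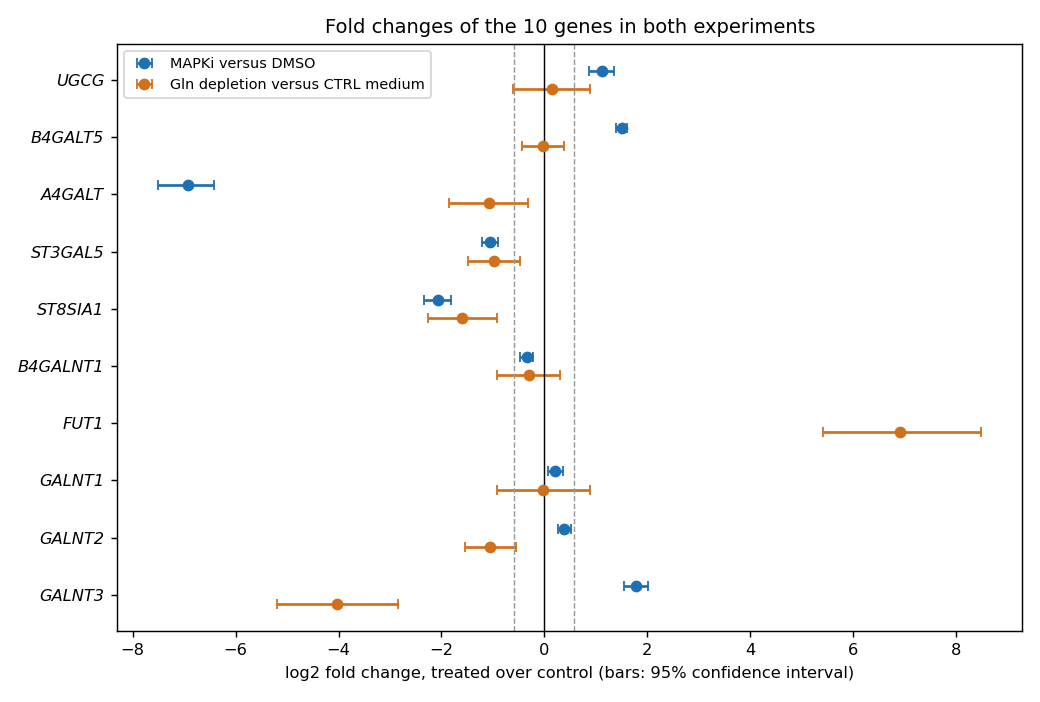
Log2 fold changes of the 10 genes, treated over control, with 95% confidence intervals from edgeR, for the MAPKi (blue) and the Gln experiment (orange), 3 libraries per group. FUT1 has no value in the MAPKi experiment, and dashed lines mark a 1.5-fold change in either direction. UGCG, B4GALT5 and GALNT3 lie to the right after MAPKi, and the intervals of the Gln experiment are the wider ones. A4GALT, FUT1 and GALNT3 were chosen for their change, so their intervals are no test.

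The 6 patterns were searched on both strands in the first window listed for each gene, and 9 of the 10 genes matched the RefSeq table, with no entry used for B4GALNT1. GGAA was found in 8 of the 9, and in 95.5% of all windows. The AP-1 pattern TGANTCA was in 0 of 9 (7.73% of all windows) and the E-box CACGTG in 0 of 9 (7.20%). CATGTG, bound by MITF-type factors, was in the window of B4GALT5 only (11.1% of all windows), TGATGNAA in that of FUT1 only, and the cAMP response element TGACGTCA in that of ST3GAL5 only (1.84%). TGATGNAA and GGAA can share letters where N is G, which is not so in the FUT1 window.

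Levels can be compared between genes only per length, and RPKM over merged exons are used for this. With DMSO, GALNT2 was at 72.2 ± 4.5 RPKM (SD, n = 3), followed by B4GALT5 at 33.9 ± 1.7, GALNT1 at 25.9 ± 1.4 and UGCG at 12.1 ± 1.1, each above the range of the next by this length. ST3GAL5 (6.40 ± 0.46) and GALNT3 (5.77 ± 0.83) overlapped, as did B4GALNT1 (4.46 ± 0.28) and A4GALT (4.16 ± 0.19), and ST8SIA1 (1.95 ± 0.16) and FUT1 (0.015 ± 0.0078) came last. The order in CTRL medium was much the same, from GALNT2 at 75.3 ± 14.0 to FUT1 at 0.025 ± 0.022 RPKM. With MAPKi, B4GALT5 (97.0 ± 1.3) reached the level of GALNT2 (95.5 ± 2.1), GALNT3 stood at 20.1 ± 1.8, and FUT1 and A4GALT overlapped at the bottom at 0.034 RPKM each. Without Gln, B4GALT5 (40.9 ± 4.5), GALNT2 (35.4 ± 6.9), GALNT1 (25.5 ± 8.4) and UGCG (19.1 ± 2.9) each overlapped with the next. FUT1, at 2.98 ± 0.74 RPKM, then lay within the range of ST3GAL5 (3.59 ± 0.91) above and A4GALT (2.15 ± 0.96) below, and GALNT3 (0.227 ± 0.13) was the lowest of the 10. The order depends on the length used. Over the longest transcript of each gene, GALNT2 was the highest in all 4 groups, at 166.6 against 97.0 RPKM for B4GALT5 with MAPKi and at 61.8 against 40.9 without Gln, with ranges apart in both. With DMSO, B4GALT5 (33.9) and GALNT1 (33.4) then overlapped, and ST3GAL5 (16.9) lay above UGCG (14.0).

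A contrast over the 12 libraries tested whether the 2 treatments differed in their effect. It was tested against no change and not against the 1.5-fold threshold. Of the 7 genes not chosen on their values, 3 differed, where 40.3% of 12627 genes did. B4GALT5 changed by 1.58 more on the log2 scale with MAPKi than with Gln depletion (SE 0.16, edgeR adjusted p = 2.05e-05) and GALNT2 by 1.49 more (SE 0.23, adjusted p = 3.17e-04, edgeR). UGCG changed by 1.02 more (SE 0.37, edgeR adjusted p = 0.0454), which moved above 0.05 (0.0546 to 0.116) when any DMSO or MAPKi library, CTRL replicate 2 or 3, or Gln-depleted replicate 1 or 3 was left out. No difference was called for ST3GAL5 (-0.030, interval -0.53 to 0.48), ST8SIA1 (-0.43, interval -1.15 to 0.28), B4GALNT1 (0.013, interval -0.63 to 0.65) and GALNT1 (0.28, interval -0.70 to 1.25). These intervals leave room for differences of either sign. For the chosen genes the differences were -5.79 (A4GALT), -5.79 (FUT1) and 5.86 (GALNT3). Sequencing batch and experiment cannot be told apart here, although a shift shared by both groups of an experiment cancels in the contrast.

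Around these genes, 8 lists of the same pathways were counted. Over all genes tested, 17.1% were called higher and 18.4% lower after MAPKi, and 3.51% and 1.92% after Gln depletion. These shares stand beside all list counts below, and a count near them is not read as a result about a list. The Gln counts by list are from the fit without the replicate block. With that block, 8.99% and 7.4% of all genes tested were called higher and lower. Counts by list with the block are not given, so a low Gln count is not read as a lack of response. Ceramide synthesis and transfer, which feeds UGCG, had 6 genes higher (5 by DESeq2) and 1 lower after MAPKi of 20 tested, with a median log2 fold change of 0.47. The ceramide synthases CERS4 and CERS1 rose by 3.79 and 1.01 on the log2 scale, the serine palmitoyltransferase subunit SPTLC3 by 2.47 and the ceramide transfer protein CERT1 by 1.70. SGMS2, which uses ceramide for sphingomyelin, fell by 1.95. Lysosomal and other sphingolipid hydrolases and their activators had 11 genes higher (10 by DESeq2) of 14 tested, with a median of 1.27, where 17.1% of all genes tested were higher, and 0 lower (also 0 at an unadjusted p under 0.05 and by DESeq2). Among them, the acid sphingomyelinase SMPD1 rose by 2.37 on the log2 scale, the saposin precursor PSAP by 1.77, the galactosylceramidase GALC by 1.60 and the acid ceramidase ASAH1 by 1.51. SMPD1 and ASAH1 act on sphingomyelin and ceramide and not on glycosphingolipids themselves. In the Gln experiment, without the replicate block, 0 genes of these 2 lists were called by edgeR, of 20 and 14 tested, and 0 by DESeq2. At an unadjusted p under 0.05, 3 genes of ceramide synthesis were higher and 4 lower, and 3 hydrolases or activators were higher and 3 lower.

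Other glycosphingolipid glycosyltransferases had 8 genes lower (6 by DESeq2) and 1 higher after MAPKi of 18 tested (median -0.60), where 18.4% and 17.1% of all genes tested were. Besides B4GALT6, the sialyltransferases ST6GAL1, ST6GALNAC5 and ST3GAL6 fell by 1.67, 1.52 and 1.34 on the log2 scale. ST6GAL1 and B4GALNT4, which was also called lower, act on glycoproteins, so the count is not one of glycolipid enzymes alone. The 1 higher gene, ST8SIA6, a relative of ST8SIA1, had a mean normalized count of 9.64 ± 3.35 with DMSO and 584 ± 112 with MAPKi (SD, n = 3). ST3GAL4, the highest of the list by RPKM, had a value of 0.046. After Gln depletion 1 gene was called of 18 tested (median -0.27). It was B3GALT5, a galactosyltransferase of the lacto series, with 1 read in the CTRL libraries and 120 reads in the Gln-depleted ones. The filter was a mean normalized count of 10 over both groups. ST8SIA6 and ST6GALNAC5 in the MAPKi experiment and B3GALT5 in the Gln experiment passed it only through the group where they were high. Their calls therefore support nothing, although these genes are included in the counts of this list and in the totals over the 8 lists. Among other fucosyltransferases and GDP-fucose enzymes, POFUT1, which fucosylates Notch and was the highest of the list, fell by 0.78 after MAPKi and was the only gene called of 9 tested. SLC35C1, the GDP-fucose transporter, had a value of 0.71. In the Gln experiment 0 of 10 were called by edgeR or DESeq2, with 1 higher and 1 lower at an unadjusted p under 0.05.

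In the rest of the GALNT family 2 genes were lower after MAPKi of 8 tested (median -0.30), where 18.4% of all genes tested were. After Gln depletion 3 of 8 tested were lower (median -0.80), or 1 by DESeq2, where 1.92% of all genes tested were. No gene was called higher: the counts were 0 by edgeR and 0 by DESeq2, and 1 and 0 at an unadjusted p under 0.05. GALNT18 was called in both: it fell by 2.95 on the log2 scale with MAPKi and fell by 1.67 without Gln. GALNT13 fell by 1.85 after MAPKi, and GALNT5 and GALNT11 fell by 1.92 and 1.25 without Gln, with edgeR adjusted p of 0.0481 and 0.0408. GALNT7, the other of the highest genes with GALNT11, had values of -0.49 and -0.52. As a share of the reads per kilobase of the family (longest transcript of each gene), GALNT3 made up 2.92 to 3.57% with DMSO and 9.24 to 10.1% with MAPKi, and 1.05 to 2.60% in CTRL medium and 0.150 to 0.372% without Gln. GALNT18 went from 5.62 to 6.42% with DMSO to 0.567 to 0.724% with MAPKi. GALNT2 held the largest share in each library, from 40.5 to 63.7%.

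**Figure D4:**
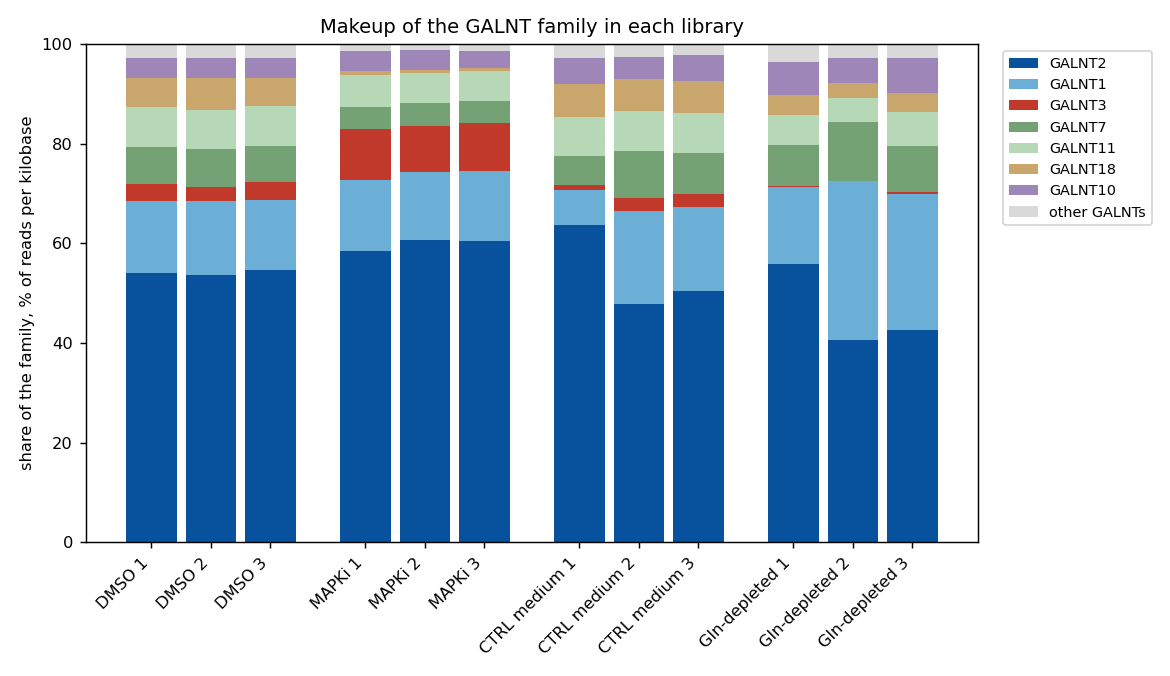
Share of each GALNT gene in the summed reads per kilobase of the family (y axis, percent) in the 12 libraries. GALNT3 (red) widens to 9.24 to 10.1% with MAPKi and is 0.372% or less without Gln, and GALNT1 (light blue) is narrower in replicate 1 of both media of the Gln experiment.

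Enzymes that extend mucin-type O-glycans had 2 genes higher and 3 lower after MAPKi of 10 tested (median -0.28). Of all genes tested, 17.1% were higher and 18.4% lower. Of GCNT3 and GCNT1, both of which can make the core 2 branch, the former rose by 2.99 on the log2 scale and the latter fell by 3.89. The sialyltransferase ST6GALNAC2 rose by 2.90, and B4GALT2 and B3GNT7 fell by 1.94 and 0.84, while B3GNT2 had a value of -0.048. In the Gln experiment 0 of 11 were called by edgeR or DESeq2, and 2 were higher and 4 lower at an unadjusted p under 0.05. Of 22 mucin genes only 6 had enough reads to test. After MAPKi, PODXL, MUC1 and SELPLG rose by 2.81, 2.75 and 2.70 and MUC7 fell by 2.93, and after Gln depletion MUC5B rose by 3.26 and MUC7 fell by 2.90. CD164, the mucin-like gene with the highest level, had values of 0.13 and 0.50.

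For nucleotide sugars, the donors of these reactions, 3 genes were higher and 6 lower after MAPKi of 20 tested (median -0.27). Of all genes tested, 17.1% were higher and 18.4% lower. After Gln depletion 2 were higher (median 0.099) and 0 lower by edgeR or DESeq2, with 3 lower at an unadjusted p under 0.05. Here 3.51% of all genes tested were higher and 1.92% lower. GFPT1, which uses Gln to open the hexosamine pathway towards UDP-N-acetylglucosamine, rose by 1.84 on the log2 scale without Gln (edgeR adjusted p = 0.0101) and fell by 0.89 with MAPKi. UAP1, UGP2, GNPNAT1 and GNE, which make UDP-sugars and sialic acid precursors, fell by 1.75, 1.55, 1.11 and 1.07 with MAPKi, and NANS, a later enzyme of sialic acid synthesis, rose by 1.12. The transporter SLC35D2 rose in both experiments, by 0.95 and 1.25, and SLC35D1 rose by 0.92 with MAPKi. CMAS, which activates sialic acid, had values of -0.25 and -0.18. Over the 8 lists, 26 genes were called higher and 22 lower after MAPKi and 4 and 4 after Gln depletion, and with the replicate block the latter counts were 12 and 9. Without CTRL replicate 3 they were 2 and 2, and without CTRL replicate 2 or Gln-depleted replicate 2, 2 genes were lower.

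**Figure D5:**
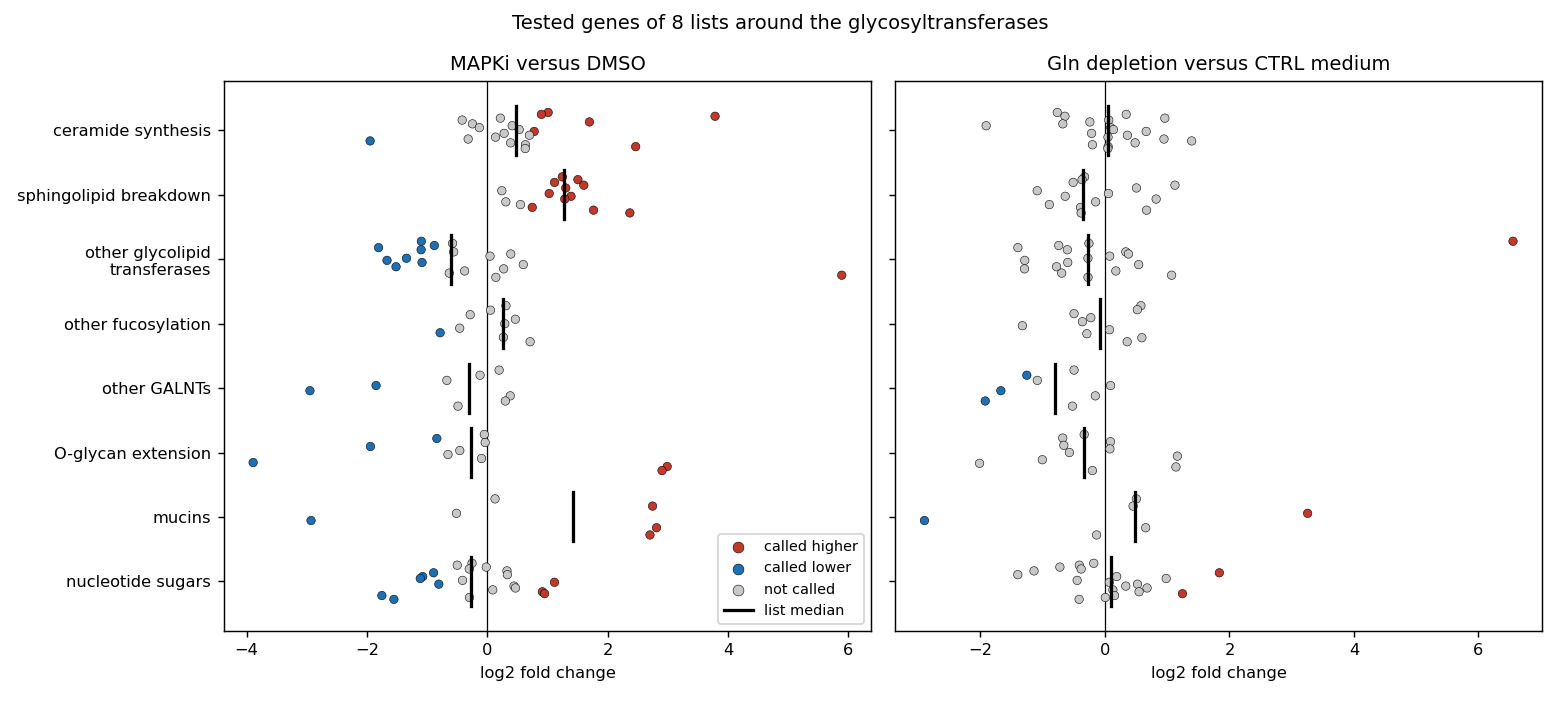
Log2 fold changes of the tested genes of the 8 lists in the MAPKi (left) and Gln (right) experiments. Red and blue dots are genes called higher and lower, grey dots were not called, and black bars are list medians. Of the hydrolases and their activators, 11 of 14 are red on the left and 0 on the right. Calls are from the fits without the replicate block.

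The genes whose profile over the 12 libraries was closest to a chosen gene were found by the Euclidean distance of log2 CPM. These are counts scaled to the TMM-scaled library size, and they were centred on the control group of each experiment. The search covered the 10740 genes whose mean normalized count reached 100. It ranks genes on the values by which the 3 genes were chosen. Short distances and similar fold changes of the genes found are therefore fixed by the search and support nothing. For A4GALT they were PLLP, RLBP1 and CTDSPL (distances 1.61, 1.79 and 2.24, against a median of 11.5 over all genes). For FUT1 they were SCN9A, IL11 and UNC5B (2.83, 2.85 and 3.00, median 11.7), and for GALNT3 they were LRRTM4, TRIM63 and PCDH7 (1.29, 1.55 and 1.57, median 7.93). PLLP had log2 fold changes of -6.91 after MAPKi and -1.58 after Gln depletion, IL11 had 1.67 and 6.89, and LRRTM4 had 1.57 and -3.75. UNC5B had no fitted value in the MAPKi experiment. Among the genes that flank the 10, ARFGAP3 next to A4GALT and URB2 next to GALNT2 fell by 0.92 and 1.05 after MAPKi, and OS9 next to B4GALNT1 rose by 1.36.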

How the data were processed

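RNA-seq was performed on 12 libraries of A375 cells in 4 groups of 3. Per the labels the RNA came from a cytoplasmic lysate, per the methods of the study it was total RNA. Per the study's methods, libraries were depleted of ribosomal RNA, and the authors trimmed reads with fastp (0.20.1), aligned them to GRCh38.p13 with HISAT2 (2.2.1) and counted reads per gene with HTSeq (0.13.5). The deposited values are raw counts of 44659 genes by symbol. All columns were used.

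Symbols were matched to RefSeq and GENCODE 44 (GRCh38), 36524 directly and 513 by an older symbol, with 5082 further copies kept apart and 2540 not matched. Each experiment was fitted on its own by the quasi-likelihood method of edgeR (4.0.16, R 4.3.3) after TMM scaling, on protein-coding genes whose mean normalized count reached 10, with 1 mean per group. A gene was called higher or lower when the test against a 1.5-fold change passed 0.05 after Benjamini-Hochberg adjustment over every gene tested. The difference between the experiments was tested against no change in a fit of the 12 libraries, with the same adjustment. The difference between experimental batches was also tested against no change. Pooled counts were compared with exact 95% intervals. The fit was tested on simulated data: 200 of 200 genes changed by 2 on the log2 scale were called in the MAPKi design (2 of the other genes) and 165 of 200 in the Gln design (4 of the other genes). Tables, motif searches and figures were made in Python 3.11.15 (numpy 2.4.6, pandas 2.3.3, scipy 1.17.1, matplotlib 3.10.9).

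The genes and lists were chosen with earlier results of these data known. Named from each list are the called genes, at most the 4 largest per comparison and direction, and the 2 with the highest RPKM, and some of these are not reported here. The labels do not say whether libraries of a group came from separate cultures, so p-values measure the spread between these libraries only. In the Gln experiment, same-numbered libraries deviated together from their group means (correlations of 0.597, 0.459 and 0.394), so the numbers pair the libraries. No pair of libraries of a group agreed within sampling noise. Alternatives were DESeq2 1.42.0, its size factors in edgeR, other thresholds and filters, all genes, a fit of 12 libraries, the replicate block, a GC-content trend correction (5 degrees of freedom), terms for and fits within experimental batches, and each library left out in turn.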

Additional observations from a re-analysis of the deposited data

Results flagged for a closer look

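For B4GALT5 and GALNT1, the effect of Gln depletion in experimental batch 1 had the opposite sign to that in each pair of batch 2. For B4GALT5 the log2 difference was 0.26 in batch 1 and -0.047 and -0.29 in the pairs of batch 2. The effect in batch 1 was 0.43 above that in batch 2 (SE 0.25, edgeR adjusted p = 0.763 against no change). For GALNT1 the log2 difference was 0.31 in batch 1 and -0.17 and -0.0027 in batch 2. The difference between batches was 0.40 (SE 0.29, edgeR adjusted p = 0.803 against no change). Batch 1 holds 1 library per medium. UGCG had the largest difference between batches among the 10 genes, 1.08 (SE 0.31, unadjusted p = 0.0115 and adjusted p = 0.748 by edgeR). Its log2 difference was 0.96 in batch 1 and 0.099 and -0.36 in the pairs of batch 2.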

How the results depend on the processing

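Under the alternatives, 474 values of the 10 genes kept their direction and, where tested, their side of the threshold. Of the others, 27 changed sign, 21 lost a call, 17 gained one and 4 moved by more than the spread. These totals include A4GALT, FUT1 and GALNT3, which have no test and could neither lose nor gain a call. The 474 is therefore no measure of how stable the calls are. After MAPKi, the 7 tested genes gave 2 higher and 2 lower calls. Without a fold-change threshold 4 were higher, and with a log2 threshold of 1 there was 1 higher and 1 lower. No call of these genes after MAPKi was lost under DESeq2, other size factors or filters, the replicate block or any library left out. After Gln depletion the main count of 1 lower was 3 without a fold-change threshold, 3 in the fit of 12 libraries, 3 with the replicate block, 3 with the replicate block and the GC-content correction together, 3 with experimental batch as a term, 2 with the GC-content correction, 2 within batch 2, 0 with a threshold of 1, and 0 to 1 with a library left out. In the 8 lists, the 26 higher and 22 lower calls after MAPKi were 49 and 42 without a threshold, and 13 were lower with a threshold of 1. The 4 higher calls after Gln depletion were 10 without a threshold, 7 in the fit of 12 libraries, 12 with the replicate block, 10 with the replicate block and the GC-content correction, 11 with batch as a term, and 2 to 4 with a library left out. The 4 lower calls were 11, 11, 9, 11 and 9 in the same order, 2 with a threshold of 1, 2 by DESeq2, 2 at a mean count of at least 100, 7 with the GC-content correction, 8 within batch 2, and 2 to 5 with a library left out. The MAPKi libraries with the same number did not deviate together (correlations of 0.074, 0.055 and 0.053), and there the replicate block left the counts of the 7 genes at 2 and 2 and gave 28 higher and 22 lower calls in the lists.

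The difference between the experiments was called for 3 of the 7 genes, and for 2 to 3 with a library left out. UGCG lost it with the DESeq2 size factors (edgeR adjusted p = 0.0559) and with all genes of the table (edgeR adjusted p = 0.0507). The values that changed sign were not called under any of the settings run. After Gln depletion, UGCG was -0.12 within batch 2 and -0.16 to 0.34 with a library left out, B4GALT5 was 0.26 within batch 1 and -0.11 to 0.051 with a library left out, and GALNT1 was 0.044 with the replicate block, 0.040 with batch as a term, 0.31 within batch 1 and -0.34 to 0.29 with a library left out. The difference between the experiments was 0.072 for ST3GAL5 with the GC-content correction and -0.19 to 0.17 with a library left out. For B4GALNT1 it was -0.0011 by DESeq2, -0.0049 with its size factors, -0.22 with the GC-content correction and -0.23 to 0.22 with a library left out, and for GALNT1 it was -0.039 to 0.58 with a library left out. The cause of these changes was not tested. Batch 1 of the Gln experiment, with 1 library per medium, gives values without a test, and where a library was left out of a group of 3 the other groups carry more of the estimate of spread. Among the 10 genes, depth limits FUT1 outside the Gln-depleted libraries and A4GALT with MAPKi, where 0 to 8 reads per library were counted.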
